A study of Mus musculus with 6 samples.

Results

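Vcan encodes versican, a large chondroitin sulfate proteoglycan of the lectican family that binds hyaluronan. In preovulatory follicles it is known as a gene that the luteinizing hormone (LH) surge raises in granulosa cells, and its protein is built into the matrix of the expanding cumulus and cleaved by proteases of the ADAMTS family. The gene also yields circular RNA (circRNA), made when the splicing machinery ties the end of an exon back to the beginning of the same or an earlier one, a back-splice. The circRNA described here were all junctions that the deposited table types as circRNA and whose gene entry names Vcan. There were 17 such isoforms among 42381 circRNA, all on the minus strand of chromosome 13 (GRCm38), and none shared its entry with another gene.

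RNA was taken from mural granulosa cells, which line the follicle wall, of wild-type (WT) CF-1 mice. All mice were 21 days old at a priming dose of 5 IU of pregnant mare serum gonadotropin (PMSG, also called equine chorionic gonadotropin). The 4-h post-hCG group (3 mice) then received hCG (human chorionic gonadotropin), a hormone that binds the LH receptor and stands in for the surge, and was collected 4 h later, while the 0-h group (3 mice) was collected 46 h after PMSG alone. The cells were released by puncture of large follicles, and the cumulus-oocyte complexes were removed. Each library was 1 mouse, and a replicate number names a mouse.

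The 4-h post-hCG libraries held 156625, 135198 and 119094 back-splice reads at junctions with a gene entry, and the 0-h libraries held 162761, 163145 and 128354. Linear counts, given beside each junction for RNA that is not back-spliced, summed to between 5070799 and 7452634 per library over the circRNA rows. Vcan took few of these reads, 506 back-splice reads in all, so counting error is wide for most isoforms. All 9 granulosa markers passed the filter on low counts, 1 of them higher and 5 lower at 4-h post-hCG, and they summed to between 2856 and 3603 linear counts per 1000000 counted (CPM) at 4-h post-hCG and between 3165 and 3513 at 0-h. Of the 5 markers listed for cumulus cells, Has2, Tnfaip6 and Ptx3 were higher at 4-h post-hCG while Slc38a3 and Amhr2 were lower, the first 3 being also among the matrix genes listed further on, and the list summed to between 857 and 1162 CPM at 4-h post-hCG and between 169 and 206 CPM at 0-h. The markers of stroma ranged from 131 to 190 CPM at 4-h post-hCG and from 148 to 252 CPM at 0-h, and those of immune cells from 7.72 to 9.03 CPM and from 6.54 to 9.94 CPM in the same order, with none of the tested members of either list passing. Those of theca ran from 107 to 134 CPM at 4-h post-hCG and from 143 to 173 CPM at 0-h, with Insl3 higher and Aldh1a1 lower. Those of the oocyte ran from 99.5 to 109 CPM and from 85.7 to 95.1 CPM in the same order, with Zp1 higher. Of 7 endothelial markers 3 were tested, and they ran from 22.6 to 25.4 CPM and from 11.8 to 25.3 CPM in that order. Kdr was higher, while Pecam1 and Cdh5 were not called. These sums and calls take junctions of every type in the table, over which 13.9% of 12220 genes were called higher and 12.2% lower. In bulk RNA of this kind, fewer cells of a type and less RNA per cell cannot be told apart. The part of the granulosa, cumulus, theca, oocyte and endothelial markers in the changes of Vcan was not tested.

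Every Vcan circRNA began and ended at annotated exon boundaries of the 15-exon transcript of GENCODE M21, and the exon count in the table matched that transcript for 17 of 17. Exons 2 to 6 lie over the part of the message that encodes the start of the protein, including its hyaluronan-binding region. Exon 7 (2880 nt) and exon 8 (5217 nt) encode the α and β chondroitin sulfate attachment regions. These are the exons that linear splicing keeps or skips to make the known versican forms, and the annotation holds transcripts with both, with either and with neither. The exons after exon 8 encode the globular end of the protein and the 3′ end of the message. No circle began at exon 1 or ended at exon 15.

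The 4 isoforms that reached 100 CPM in at least 3 libraries held 409 of the 506 reads (80.8%). They are called abundant here and were the only Vcan isoforms read in all 6 libraries. The exons 2 to 5 circle spans chr13:89721567-89731534 and is 754 nt when spliced. The exon 7 circle is that single exon, chr13:89702918-89705797. The exons 8 to 12 circle spans chr13:89678075-89693501 and is 5687 nt when spliced, and the exons 8 to 13 circle spans chr13:89661917-89693501 and is 5832 nt when spliced. Spliced lengths assume that all annotated exons in between are kept, which reads over the back-splice alone do not show. The junction sequences follow, read from the GRCm38 genome on the strand of the gene, because these 30 bases, absent from the linear message, are what a back-splice read of each isoform holds. The last 15 bases of the circle's last exon are in lower case and the first 15 bases of its first exon are in capitals.
Vcan exons 2 to 5: tggatcatctggatgGACAAGATGTTGATA
Vcan exon 7: gagaaaacaagacagCTAAACAGAATATAT
Vcan exons 8 to 12: gacggcagtgcactgGTCGATTGAGTGATA
Vcan exons 8 to 13: gcaagaagggaacagGTCGATTGAGTGATA
The shared capitals of the last 2 sequences show that both circles begin at the same 5′ start of exon 8.

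Most reads fell into 3 blocks along the gene, which the map of back-splice junctions shows. Circles beginning at exon 2 took 231 reads in 3 isoforms, circles beginning at exon 8 took 198 reads in 6 isoforms, and circles beginning at exon 7 took 60 reads in 3 isoforms, of which the single-exon circle had 56. The start of exon 8 was joined to the ends of exons 8, 9, 10, 12, 13 and 14, so that 1 start site was used with 6 partners. The spliced length of the 17 isoforms ranged from 228 to 9615 nt. Among the 1657 abundant circRNA of all genes that matched a transcript, the median was 520 nt, and the Vcan circles of exons 8 to 13, exons 8 to 12 and exon 7 ranked 2, 4 and 9 by length. Within 1000 nt on either side of the abundant Vcan circles the longest inverted match between the flanking introns was 9 to 11 nt, against a median of 11 nt for all abundant circRNA.

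**Figure D1:**
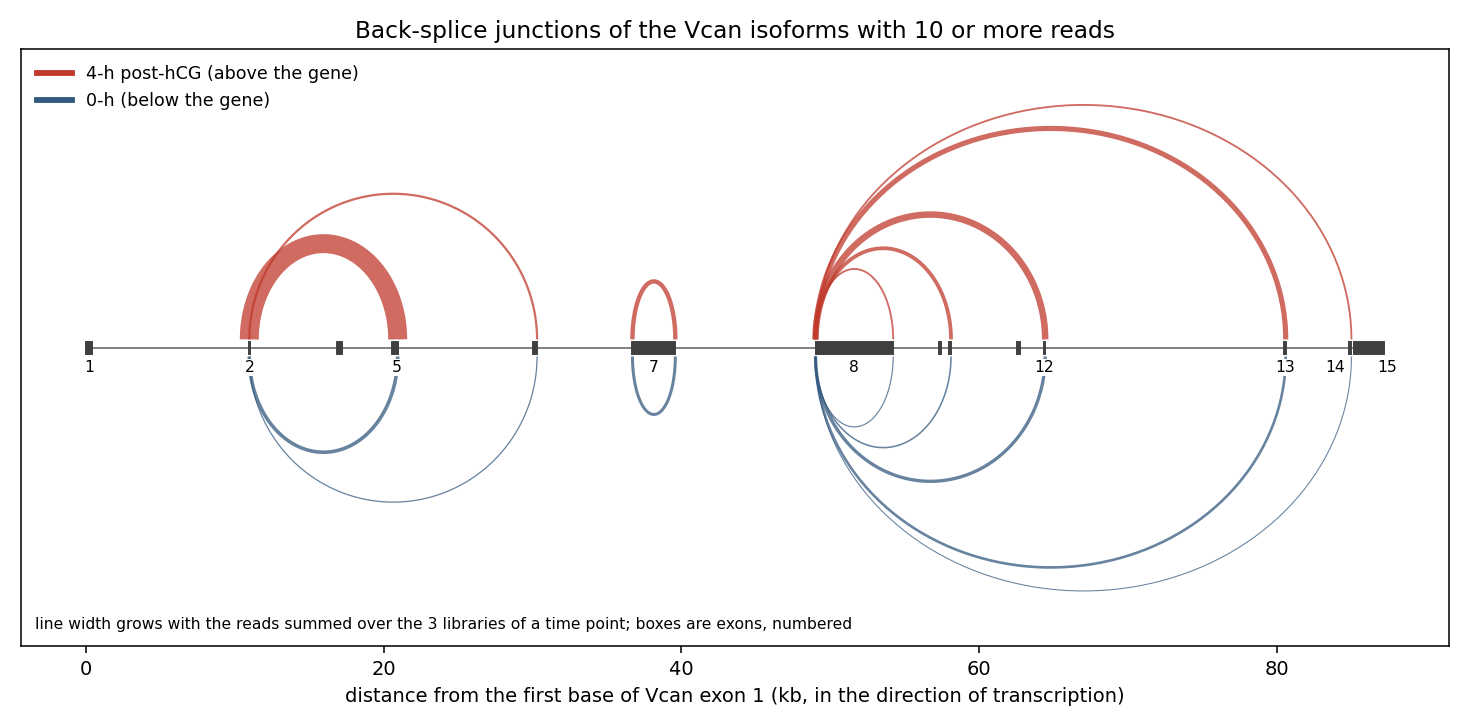
Back-splice junctions of the 8 Vcan isoforms with 10 or more reads, drawn along the gene by distance from the first base of exon 1 in kb. Boxes are exons, arcs join the exon ends of a circle, and line width grows with the reads summed over the 3 libraries at 4-h post-hCG (above) and at 0-h (below), with 185 reads at 4-h post-hCG and 27 at 0-h for the widest arc, that of exons 2 to 5.

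To ask whether hCG changed the circular RNA of the gene as a whole, the back-splice reads of all Vcan circRNA were summed per library. There were 177, 64 and 154 reads at 4-h post-hCG, against 39, 41 and 31 reads at 0-h. The groups did not overlap, and 4-h post-hCG replicate 2 was the lowest of its group. Scaled to library size, Vcan had 943 ± 429 CPM at 4-h post-hCG and 250.2 ± 8.43 CPM at 0-h (SD, n = 3 each). The log2 fold change was 1.91 (standard error 0.26, edgeR quasi-likelihood test with Benjamini-Hochberg adjusted p = 2.02e-09). It ranked 10 of 1630 genes tested, 1.41% of which were called higher, where a call needed a 1.5-fold change or more and an adjusted p no higher than 0.1.

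Of the 8 isoforms tested, only the exons 2 to 5 circle passed. It had 94, 27 and 64 reads at 4-h post-hCG, against 4, 12 and 11 reads at 0-h. In CPM scaled over the circRNA with 10 or more reads it stood at 550.3, 198.5 and 538.7 at 4-h post-hCG and at 25.5, 72.0 and 92.3 at 0-h, so the lowest 4-h library lay above the highest 0-h library. The same was true of 6.51% of the abundant circRNA of all genes. Its log2 fold change among the 1658 abundant circRNA was 2.86 (standard error 0.41, edgeR adjusted p = 1.54e-07), against 1.09% of circRNA called higher. Leaving out any 1 library kept the change between 2.47 and 3.22 and within the call.

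The long circles from exon 8 were higher on average but did not pass. The exons 8 to 12 circle had 25, 11 and 21 reads at 4-h post-hCG, against 15, 7 and 2 reads at 0-h. Replicate 1 at 0-h was read more often than replicate 2 at 4-h post-hCG, and the log2 fold change of 1.41 (standard error 0.54) had an edgeR adjusted p of 0.408. The exons 8 to 13 circle, which adds exon 13, had 14, 5 and 24 reads at 4-h post-hCG, against 6, 4 and 7 reads at 0-h. Its groups overlapped as well, with a log2 fold change of 1.47 (standard error 0.62, edgeR adjusted p = 0.572).

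The exon 7 circle had the smallest fitted change of the 4. There were 16, 9 and 10 reads of it at 4-h post-hCG, against 11, 8 and 2 reads at 0-h, and the log2 fold change was 0.88 (standard error 0.64, edgeR adjusted p = 0.923). Counting error alone put the ratio of its CPM between 1.04 and 3.33 (exact 95% interval), against 5.04 to 11.8 for exons 2 to 5. These intervals hold no spread between mice. Per mouse, exons 2 to 5 had 5.88, 3 and 6.4 reads per read of exon 7 at 4-h post-hCG, against 0.364, 1.5 and 5.5 at 0-h, where replicate 3 lay within the 4-h range, and the exact two-sided permutation p was 0.2. None of the 3 isoforms passed in any alternative that was run.

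Of the other 4 isoforms with 10 or more reads, none passed among the 6968 circRNA tested at that level, where 0.172% were called higher. The exons 8 to 10 circle (chr13:89684400-89693501) had 11, 3 and 15 reads at 4-h post-hCG, against 0, 4 and 2 reads at 0-h. The exons 2 to 6 circle (chr13:89712205-89731534), which shares the start of exon 2 with the leading isoform, had 7, 2 and 4 reads at 4-h post-hCG, against 2, 0 and 1 read at 0-h. The circle of exon 8 alone (chr13:89688285-89693501) had 1, 1 and 7 reads at 4-h post-hCG, against 0, 0 and 2 reads at 0-h. The exons 8 to 14 circle (chr13:89657503-89693501) had 5, 0 and 4 reads at 4-h post-hCG, against 0, 0 and 1 read at 0-h. Each had more summed reads at 4-h post-hCG, with CPM ratios of 5.34, 4.79, 4.97 and 9.95, and exact 95% counting intervals that ran from 1.03 at the lowest to 436 at the highest. The remaining 9 isoforms had 1 to 5 reads each, 15 in all at 4-h post-hCG and 10 at 0-h, a CPM ratio of 1.66 with an interval of 0.697 to 4.13. Among them the exons 9 to 12 circle was read 5 times, each time in 0-h replicate 2, and the exons 3 to 5 circle 5 times, each time at 4-h post-hCG.

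**Figure D2:**
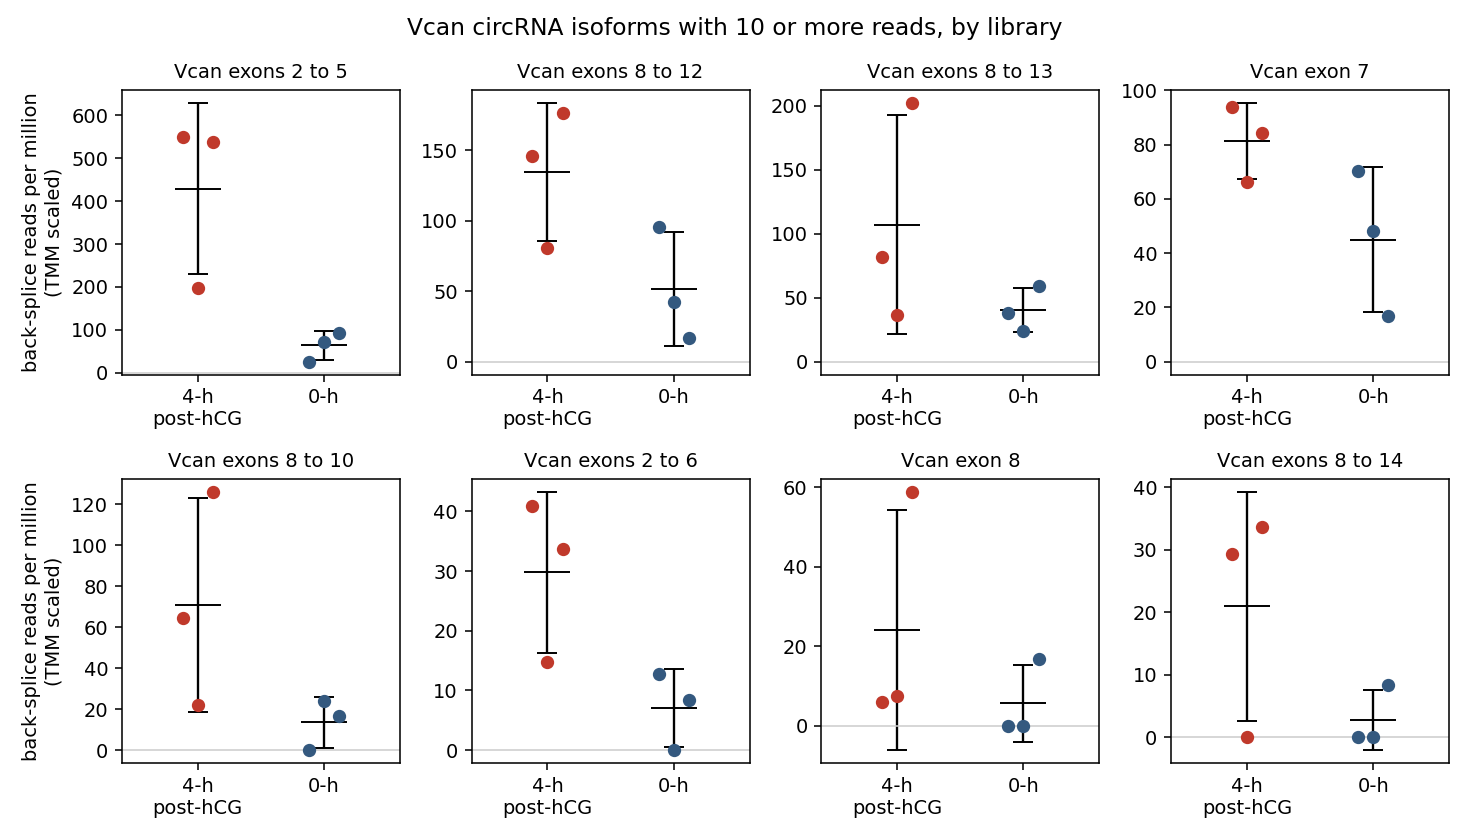
Back-splice CPM, scaled by the trimmed mean of M-values (TMM), for the 8 Vcan isoforms with 10 or more reads. Points are libraries, bars the mean ± SD of 3 mice at 4-h post-hCG (left) and 0-h (right), and the scale differs between panels. Exons 2 to 5 separate the groups, from 198.5 CPM upward at 4-h post-hCG and up to 92.3 CPM at 0-h. Exons 2 to 6 lie from 14.7 CPM upward at 4-h post-hCG and up to 12.8 CPM at 0-h. This gap comes from the scaling alone, as 4-h post-hCG replicate 2 and 0-h replicate 1 had 2 reads each. The other 6 isoforms overlap.

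The isoform mix was compared as the share of each isoform in the Vcan circRNA reads of a library. Exons 2 to 5 made up 53.1%, 42.2% and 41.6% at 4-h post-hCG, against 10.3%, 29.3% and 35.5% at 0-h. All 3 shares at 4-h post-hCG were above all 3 at 0-h, a difference of 20.6 percentage points with an exact two-sided permutation p of 0.1, the smallest that 3 against 3 mice allow, and 0.8 when adjusted over the 8 isoforms. Without 0-h replicate 1 the difference was 13.2 points. As a share of all back-splice reads that name Vcan, with or without a circRNA type, the difference was 0.029 points (p = 1, exact permutation test), and exon 7 was then the isoform whose groups did not overlap (-3.22 points, p = 0.1). Pooled over mice the share was 185 of 395 reads, 46.8% (exact 95% interval 41.8 to 51.9), at 4-h post-hCG and 27 of 111 reads, 24.3% (16.7 to 33.4), at 0-h. The intervals of pooled shares hold no spread between mice. The shares of the other 7 isoforms overlapped between the groups, with permutation p-values from 0.3 to 1. Exon 7 gave 8.86% of the pooled reads (6.25 to 12.1) at 4-h post-hCG and 18.9% (12.1 to 27.5) at 0-h. Its difference per mouse was -8.19 points, -3.12 without 0-h replicate 1 and -14.0 without 0-h replicate 3. At 0-h the total Vcan level was close in the 3 mice while the mix was not, since the leading isoform was exons 8 to 12 in replicate 1 (38.5% of its 39 reads) and exons 2 to 5 in replicates 2 and 3.

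Linear RNA of the gene rose as well. The linear value per gene is that of the circRNA junction with the highest linear total, which for Vcan was exons 4 to 5. There, linear Vcan stood at 1045, 924 and 1417 CPM at 4-h post-hCG, against 148, 157 and 147 CPM at 0-h. The log2 fold change was 2.90 (standard error 0.17, edgeR adjusted p = 2.77e-11), rank 88 of 6974 genes, 13.2% of which were called higher. The linear count of a junction behaved as a sum over its ends: in 13 of 13 sets of 4 Vcan junctions that share both starts and ends, the counts added up within 1 count. Isoforms that share an end therefore share part of their linear count and are not separate measurements.

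At the ends of the exons 2 to 5 circle the linear count was 6941, 5450 and 6246 at 4-h post-hCG, against 1034, 1304 and 912 at 0-h. At exon 7 it was 3939, 2055 and 2312 at 4-h post-hCG, against 185, 285 and 134 at 0-h. At exons 8 to 12 it was 4591, 2628 and 2502 at 4-h post-hCG, against 317, 458 and 259 at 0-h, and exons 8 to 13, which share the start of exon 8, gave close values. Every library at 4-h post-hCG stood above every library at 0-h at each of these positions, as for 12.3% of the abundant circRNA of all genes. The log2 fold changes were 2.62 at exons 2 to 5, 3.86 at exon 7, 3.29 at exons 8 to 12 and 3.31 at exons 8 to 13 (standard errors 0.20 to 0.21, edgeR adjusted p from 3.82e-19 to 4.29e-14), against 9.83% of junctions called higher. Over all 17 isoforms the linear change ran from 2.55 at exons 3 to 5 to 3.89 at exon 7, and 17 of 17 were called higher in a fit over 40144 circRNA in which 12.4% were.

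The linear count at exon 7 was compared with that at exons 2 to 5 of the same library, a contrast chosen after the values had been seen. The ratio was 0.567, 0.377 and 0.370 at 4-h post-hCG, against 0.179, 0.219 and 0.147 at 0-h. Groups did not overlap, the mean log2 ratio differed by 1.26, and the exact two-sided permutation p was 0.1, the smallest possible. Of the 7 isoforms set against exons 2 to 5 in this way, the 6 that hold exon 7 or begin at exon 8 had higher ratios in all 3 libraries at 4-h post-hCG, with log2 differences from 0.39 at exon 8 alone to 1.26 at exon 7. The ratio for exons 2 to 6, which share the start of exon 2, was 0.885 to 0.966 at 4-h post-hCG and 0.894 to 0.953 at 0-h. All 7 share a denominator, and 5 of them share the start of exon 8.

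**Figure D3:**
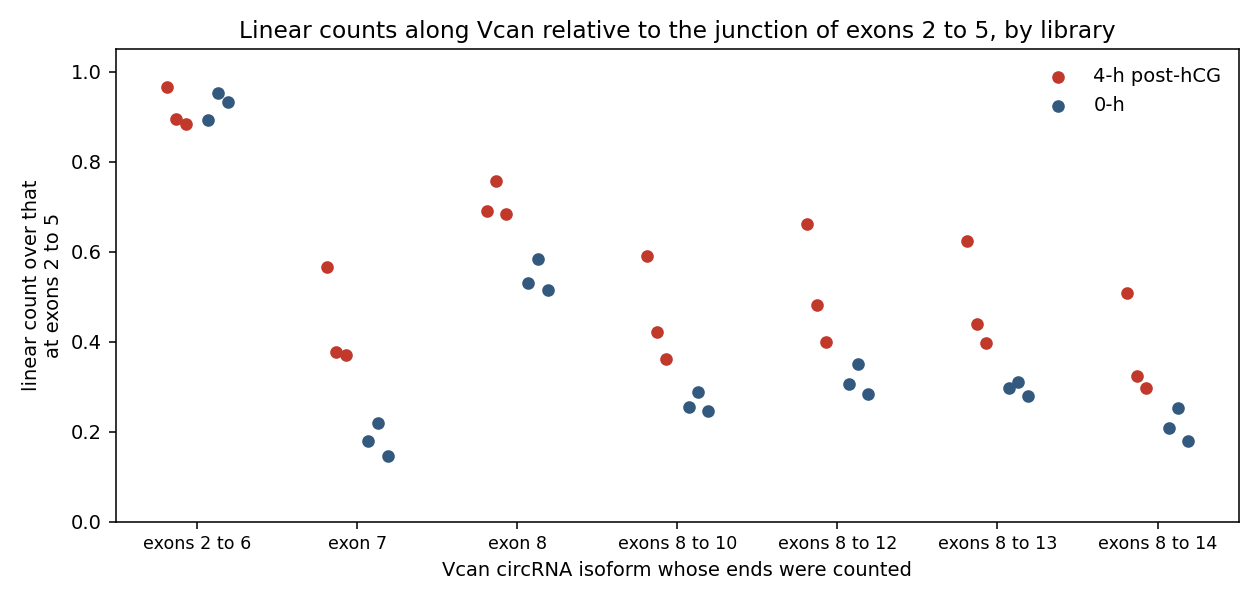
Linear count at the ends of 7 Vcan isoforms divided by the linear count at the ends of the exons 2 to 5 circle in the same library. Points are the 3 libraries at 4-h post-hCG (left of each pair) and the 3 at 0-h (right). From exon 7 onward the 4-h post-hCG points lie above the 0-h points, while those of exons 2 to 6 lie between 0.885 and 0.966 in both groups.

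To set the circular change against the linear change, the reads of each abundant circle were expressed per 1000 linear counts at its ends. Exon 7 had 4.06, 4.38 and 4.33 circular reads per 1000 linear counts at 4-h post-hCG, against 59.5, 28.1 and 14.9 at 0-h. The 3 mice at 4-h post-hCG were close to each other and all below the 3 at 0-h, which were spread by 4-fold on 2 to 11 circular reads each. Fitted over both kinds of count, the circular to linear ratio changed by -3.00 on the log2 scale (standard error 0.58, edgeR adjusted p = 0.00252), and 1.57% of abundant circRNA were called lower. Without 0-h replicate 1 the value was -2.56 and the adjusted p 0.146, which ends the call. The fit did not pair the circular and linear counts of a mouse. With mouse as a block the value was -2.98 (edgeR adjusted p = 0.00344).

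Exons 8 to 12 had 5.45, 4.19 and 8.39 circular reads per 1000 linear counts at 4-h post-hCG, against 47.3, 15.3 and 7.72 at 0-h. Here 0-h replicate 3 lay within the 4-h range. The ratio fell by 1.92 on the log2 scale (standard error 0.52, edgeR adjusted p = 0.0531). Without 0-h replicate 1 the change was -1.14 and the adjusted p 0.641, and without 0-h replicate 2 the adjusted p was 0.11, so the call rests on those mice. With mouse as a block the change was -1.91 (edgeR adjusted p = 0.0768). Exons 8 to 13 had 3.23, 2.09 and 9.69 circular reads per 1000 linear counts at 4-h post-hCG, against 19.5, 9.85 and 27.5 at 0-h. All 3 libraries at 4-h post-hCG were the lower ones, and the log2 change of -1.85 (standard error 0.62) had an edgeR adjusted p of 0.149. It was called with the DESeq2 Wald test (-1.83, adjusted p = 0.0411) and without 4-h post-hCG replicate 3 (-2.57, adjusted p = 0.0676).

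For exons 2 to 5 no change of the ratio was detected. This circle had 13.5, 4.95 and 10.2 circular reads per 1000 linear counts at 4-h post-hCG, against 3.87, 9.20 and 12.1 at 0-h. The groups overlapped throughout, and the log2 change of the ratio was 0.25 (standard error 0.46, edgeR adjusted p = 0.883, approximate 95% interval -0.65 to 1.16). Its sign depended on single mice, at -0.15 without 0-h replicate 1 and -0.05 without 4-h post-hCG replicate 1. The circular and the linear RNA at these exons had log2 changes of 2.86 and 2.62, and those at exon 7 of 0.88 and 3.86. Whether the ratio changed differently in these circles was not tested.

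**Figure D4:**
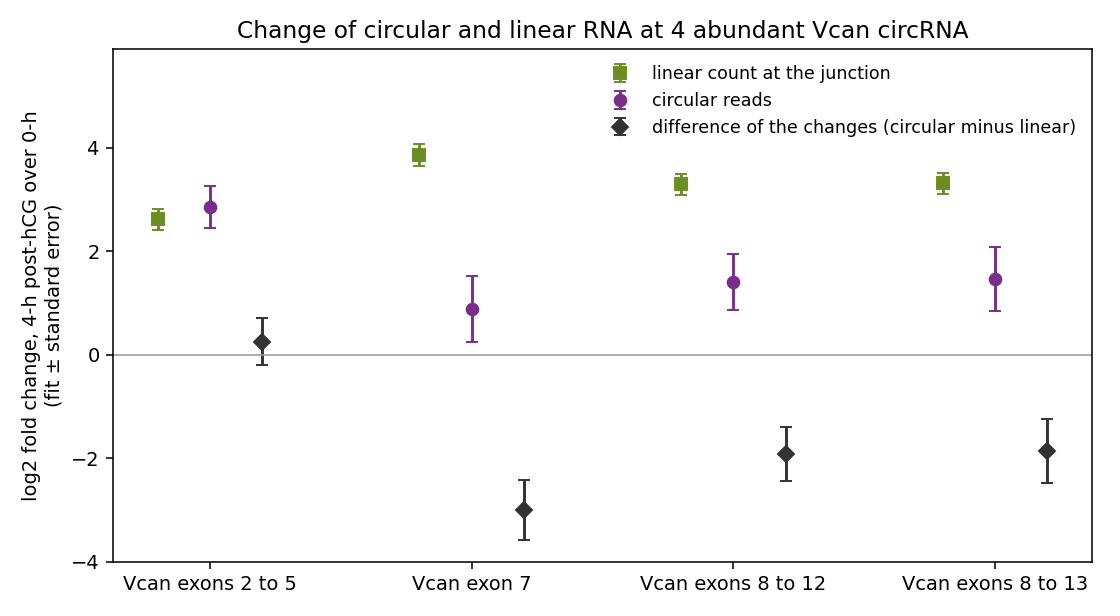
Log2 fold change at 4-h post-hCG over 0-h for the 4 abundant Vcan circRNA, with the linear count at the junction (squares), the circular reads (circles) and the difference of these changes (diamonds), each a fitted value ± its standard error. The difference is 0.25 for exons 2 to 5 and -3.00 for exon 7.

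**Figure D5:**
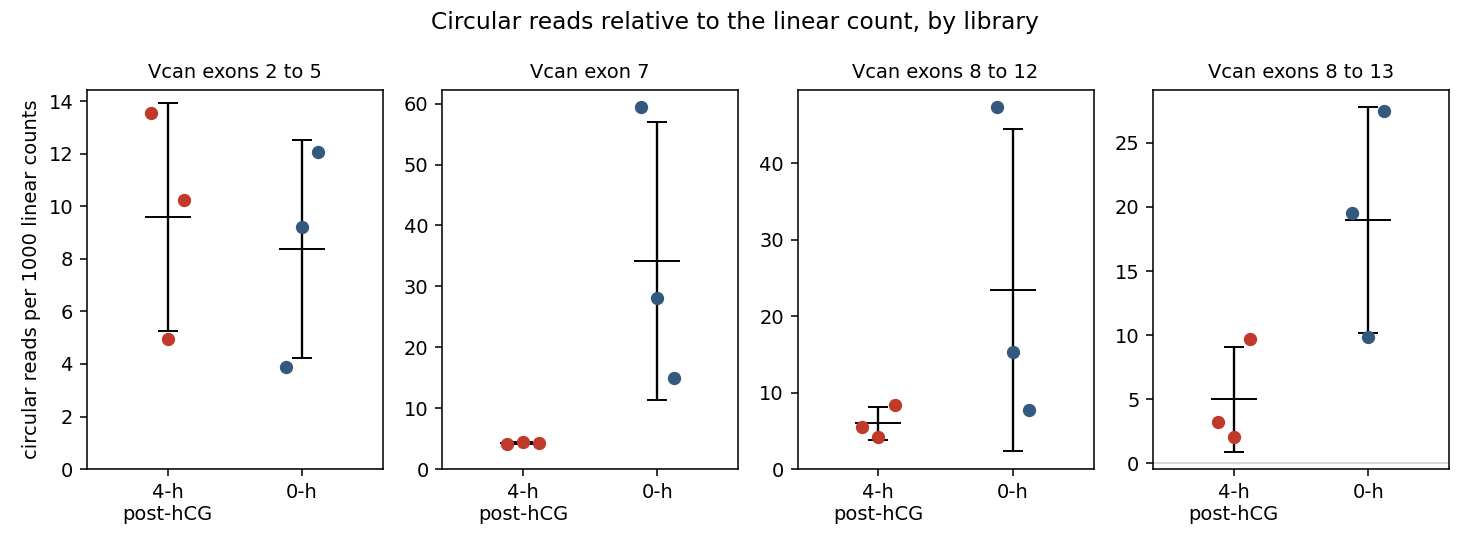
Circular reads per 1000 linear counts in each library for the 4 abundant Vcan circRNA, with the mean ± SD of 3 mice at 4-h post-hCG (left) and 0-h (right) and a scale of its own in each panel. For exon 7 the values are 4.06 to 4.38 at 4-h post-hCG and 14.9 to 59.5 at 0-h, and for exons 2 to 5 the groups overlap.

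Within a time point, circular reads were fewer than linear counts for every abundant Vcan circle in every library. For the fit, each kind was scaled to its own total and then by TMM over both kinds together. The median log2 difference over abundant circRNA was -0.016 at 4-h post-hCG and -0.040 at 0-h, so lower means lower than the typical abundant circRNA. On this scale circular against linear Vcan was lower for 4 of 4 circles at 4-h post-hCG, where 34.9% of abundant circRNA were called lower. The log2 differences were -3.82 for exons 2 to 5, -4.53 for exons 8 to 12, -4.84 for exons 8 to 13 and -5.01 for exon 7 (edgeR adjusted p at most 1.51e-14). The last was the second lowest of 1658. At 0-h it was again lower for 4 of 4, where 34.2% were called lower, at -4.08 for exons 2 to 5, -2.60 for exons 8 to 12, -2.99 for exons 8 to 13 and -2.01 for exon 7 (edgeR adjusted p at most 1.46e-05). Exon 7 had the lowest fitted value of the 4 at 4-h post-hCG and the highest at 0-h. Over all circRNA with 10 or more reads, the 0-h value of exon 7 was -0.65 with an adjusted p of 0.175, so that its call at 0-h was lost in that fit. The sizes depend on the scaling. For the 4 circles they ran from -3.76 to -2.57 at 4-h post-hCG and from -2.72 to -0.65 at 0-h with 10 or more reads, and from -7.86 to -6.67 and from -6.88 to -4.81 with reads as counted, in the same order.

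The seed sites of 4 miRNAs were counted in the spliced circles, as these small RNAs pair through bases 2 to 8 with target RNA. They were taken from the miRNAs that the study names for Vcan circRNA, and no miRNA was measured here. The study predicted them with a database on a matching human circRNA and listed those with 3 or more sites. Counts of seed sites in mouse circles, as given here, are a different measure. The mature sequences, from RefSeq on GRCm38, show with the seed in capitals that miR-326-3p and miR-330-5p share 1 seed, and the third sequence is the matching site in exon 4, chr13:89721843-89721849, within the exons 2 to 5 circle, with the 7 matching bases in capitals.
mmu-miR-326-3p: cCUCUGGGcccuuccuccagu
mmu-miR-330-5p: uCUCUGGGccugugucuuaggc
Vcan exon 4 site: gtcatagcaagCCCAGAGcagctgtttgc
Each of the 4 abundant Vcan circles held this site (CCCAGAG, on the transcribed strand) once. It was found in 11.6% of abundant circRNA of all genes and in 13.4% of the 366 within 20% of the length of the exons 2 to 5 circle. Its rate over abundant circRNA was 0.190 sites per 1000 nt, and the other 3 Vcan circles are 2880 to 5832 nt long. The site of miR-431-5p (GCAAGAC) occurred once and that of miR-494-3p (ATGTTTC) occurred in 2 copies in the circles that hold exon 8, and neither was found in exon 7 or in exons 2 to 5. They were present in 5.01% and 4.59% of abundant circRNA, most of which are far shorter than these circles, at rates of 0.0806 and 0.0761 sites per 1000 nt. A match describes the letters of the circle and not a bound miRNA.

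Genes of the matrix that versican joins were read from their linear counts per gene, of which 13.2% were called higher and 11.8% lower, with a median log2 fold change of 0.02 over all 6974 genes. Of 21 genes of the hyaluronan matrix 4 were tested, 2 higher and 1 lower, with a median of 4.28. The median was 2.70 when Has2 is set to its value at the floor given below. The 2 higher genes, Tnfaip6 and Has2, passed the low-count filter only through the 4-h post-hCG group, so these counts and medians are no test of the list. Tnfaip6, which links hyaluronan to the heavy chains of inter-α-inhibitor, had 364, 403 and 484 CPM at 4-h post-hCG, against 0.478, 0.839 and 0.684 CPM at 0-h. Has2, the hyaluronan synthase of the cumulus, had 62, 61 and 47 linear counts at 4-h post-hCG and 0 in each library at 0-h. Against a floor of 3 counts over the 0-h group, Has2 was 53.3-fold higher, and the exact 95% counting interval of its CPM ratio began at 42.9. With junctions of every type, where each 0-h library had some Has2, it was 42.4-fold higher. Hmmr, a hyaluronan receptor of dividing cells, fell by 0.79 on the log2 scale (edgeR adjusted p = 0.0333), while Itih5, an inter-α-inhibitor heavy chain, was at -0.33 (adjusted p = 0.230). With junctions of every type, 11 of the 21 were tested, 5 higher and 2 lower against 13.9% and 12.2% of genes, and these included Ptx3 and Cd44, partners of hyaluronan, while the median of the 11 was -0.036.

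Proteases that cleave versican, with their inhibitors, had 3 of 6 tested members higher and 1 lower, a median of 0.91. Over all genes, 13.2% were called higher and 11.8% lower. Plau, the urokinase activator of plasminogen, rose by 4.00 on the log2 scale (standard error 0.18, edgeR adjusted p = 2.33e-13). Adamts9 rose by 2.96 (0.16, 7.06e-12) and Adamts1, whose product cleaves versican in the ovulatory follicle, rose by 1.41 (0.16, 5.25e-07). Adamts1 had 148, 117 and 146 CPM at 4-h post-hCG, against 57.5, 55.1 and 42.4 CPM at 0-h, without overlap. Timp2, a metalloprotease inhibitor, fell by 0.61 (edgeR adjusted p = 0.0333), Ctsl was at 0.41, under the 1.5-fold threshold, and Mmp2 was at -0.23 (adjusted p = 0.575). With junctions of every type, 11 of the 17 were tested, 7 higher and 2 lower against 13.9% and 12.2% of genes, a median of 1.06. There the proteases Adamts4 and Plat rose by 2.89 and 1.06, and the inhibitors Timp1 and Timp3 by 2.66 and 0.73. Adamts5, another protease that cleaves versican, fell by 1.23 (edgeR adjusted p = 0.000491), and Timp2 fell by 0.60.

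Genes for chondroitin sulfate synthesis build the chains that exons 7 and 8 of the message provide attachment for. Of these, 2 of 12 tested were higher and 1 lower, close to the 13.2% and 11.8% of all genes, with a median of 0.29. Chst15, which adds a further sulfate to chondroitin sulfate, had 670, 489 and 861 CPM at 4-h post-hCG, against 24.2, 16.2 and 18.8 CPM at 0-h, a log2 fold change of 5.09 (standard error 0.22, edgeR adjusted p = 2.04e-13). Its own circular reads rose too, by 3.66 on the log2 scale (standard error 0.58, edgeR adjusted p = 6.61e-07). Ugdh, which makes the UDP-glucuronate used in the chain, rose by 2.30 (edgeR adjusted p = 2.52e-08), and Xylt2, which starts the chain on the core protein, fell by 0.61 (adjusted p = 0.0145). Chsy1, a polymerase of the chain, was at -0.30 (adjusted p = 0.129). Over junctions of every type, 4 of 21 tested were higher and 4 lower, against 13.9% and 12.2% of genes, a median of 0.060.

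Versican binding proteins and receptors had 2 of 6 tested members higher and 1 lower, against 13.2% and 11.8% of all genes, a median of 0.17. Fn1 (fibronectin) rose by 0.82 (edgeR adjusted p = 0.00260), Itgb1, an integrin chain, rose by 0.59 (adjusted p = 0.00358) and Egfr, the EGF receptor, fell by 0.59 (adjusted p = 0.0136). These 2 were barely past 1.5-fold, and Egfr was at -0.57 and not called with junctions of every type. Fbln1 and Fbn2 were at 0.31 and -0.30. Over junctions of every type, 3 of 8 tested were higher and 0 lower, against 13.9% and 12.2% of genes. Of 10 lecticans and other proteoglycans only Ptprz1 was tested on circRNA junctions, at 0.55 (adjusted p = 0.345). On junctions of every type 5 were tested and 1 was called, Sdc1 (syndecan-1), which rose by 2.50 (edgeR adjusted p = 1.16e-08).

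Of the genes listed for the response to the LH surge, 5 of 8 tested were higher and 2 lower, with a median of 3.92. Over all genes, 13.2% were called higher and 11.8% lower. The list was drawn up from genes known to respond to the surge, so its counts and median are a description and no test. Sult1e1, Areg and Pgr passed the low-count filter only through the 4-h post-hCG group. Sult1e1, an estrogen sulfotransferase, had 922, 695 and 557 linear counts at 4-h post-hCG, against 1, 0 and 0 at 0-h. Areg, an EGF-like ligand that carries the signal to the cumulus, had 661, 881 and 699 counts at 4-h post-hCG, against 2, 0 and 0 at 0-h. Pgr, the progesterone receptor required for ovulation, had 673, 414 and 458 counts at 4-h post-hCG, against 0, 0 and 2 at 0-h. On so few 0-h counts the CPM ratios of 2045, 1054 and 727 have exact 95% counting intervals whose lower ends are 367, 291 and 201. Runx1, a transcription factor, rose by 4.28 on the log2 scale (edgeR adjusted p = 6.16e-14), and Lhcgr, the receptor itself, was at 0.08 (adjusted p = 0.791). There were 12 higher and 2 lower among 15 tested with junctions of every type, against 13.9% and 12.2% of genes.

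The genes most like Vcan were those with the smallest Euclidean distance in centred log2 CPM over the 6 libraries, given as a description. For linear counts they were St6gal1, Zfand5, Abhd2, Nedd9 and Mid1, at distances of 0.281 to 0.420 against a median of 3.60 over 6973 genes. Their log2 fold changes ran from 2.78 to 3.10, around the 2.90 of Vcan. For circular reads they included Gpr98, Epha5, Psme4 and Clk1, at distances of 0.797 to 1.13 against a median of 2.55 over 1629 genes, and Psme4 did not pass the test of the time points (edgeR adjusted p = 0.331).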

How the data were processed

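Total RNA was sequenced from 6 libraries, and by the study's methods the authors found back-splice junctions with CIRCexplorer after mapping to GRCm38 with TopHat-Fusion. The deposited table holds raw counts, circular and linear, for each junction. For the linear counts, the tool and its settings are not given in the sources used here. A second deposited table was not used. Junctions that name no gene (15.6 to 18.9% of back-splice reads) stayed out of library sizes and tests. The table had 0 further columns of samples.

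Circular and linear counts were tested with edgeR 4.0.16 (TMM, quasi-likelihood, Benjamini-Hochberg) in R 4.3.3 over all features, for abundant circRNA (at least 100 CPM in at least 3 libraries), circRNA with 10 or more reads, and genes. Per gene, circular reads were summed, while the linear counts were those of the junction with the highest linear total. A call needed a 1.5-fold change or more with an adjusted p no higher than 0.1. The circular to linear ratio was tested as an interaction over both kinds of count, with scipy 1.17.1 for exact tests. Tested on simulated data, the fit over 1658 abundant circRNA recovered 82% of 4-fold and 28% of 2-fold changes with 16 false calls. That over 6968 circRNA with 10 or more reads recovered 33% and 6% with 3 false calls. The simulation gave every feature the same fixed spread between mice, not estimated from these data, so these figures need not hold for the Vcan circles. Alternatives were DESeq2 1.42.0, other filters and scalings, a replicate block and leaving out each mouse.

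Every Vcan isoform with 10 or more reads was named, from each gene list up to 4 called members with the largest change and up to 2 that were not called, and the 5 genes nearest to Vcan, of which 1 is not reported here. The members and lists were chosen with earlier results of these data known. Exons came from GENCODE M21 and sequences from GRCm38. Exact intervals cover counting error only, while the approximate interval of the ratio change comes from the fit and includes the spread between mice. PCR copies could not be removed.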

Additional observations from a re-analysis of the deposited data

Results flagged for a closer look

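The table also holds junctions that name Vcan but carry no circRNA type. Above, their reads entered only the library sizes and the shares taken over all back-splice reads that name Vcan. Tested on their own, these junctions held a signal that differed between the time points. There were 1800 of them, more than for any other gene entry, with 3373 reads against 506 for the 17 circRNA. They had 1299, 759 and 917 reads at 4-h post-hCG, against 105, 166 and 127 reads at 0-h, a log2 fold change of 3.10 (standard error 0.20, edgeR adjusted p = 2.86e-14), where 5.44% of the 1636 genes tested on such reads were called higher. Reads with both ends inside exon 8 made up 49.5% and those inside exon 7 19.7%. None of the 1800 joined a pair of annotated exon ends, 931 were read once, and their median span was 576 bp. The circRNA-typed reads were 11.99%, 7.78% and 14.4% of all back-splice reads naming Vcan at 4-h post-hCG and 27.1%, 19.8% and 19.6% at 0-h.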

How the results depend on the processing

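The change of exons 2 to 5, of circular Vcan per gene (1.64 to 2.24 when each mouse was left out) and of linear Vcan per gene (2.71 to 3.03, and 2.44 with junctions of every type) kept direction and call in every alternative run, and 328 of 336 alternative fitted values for Vcan kept theirs. Of 56 alternative share differences, 46 kept their sign and stayed within 1 SD, and 10 did not. Counts of calls moved more. Among abundant circRNA 20 were called, 10 to 19 when each mouse was left out. Among circRNA with 10 or more reads 12 were called, 7 to 12 without each mouse, 20 at 30 or more reads, 19 with the DESeq2 Wald test and 7 with no filter. Circular reads per gene gave 25 calls, 12 to 27 without each mouse and 14 with single-gene entries. Linear counts gave 341 calls per circRNA and 9872 over all circRNA that pass the low-count filter, and 1742 per gene and 3192 with junctions of every type. Circular against linear gave 1130 calls at 4-h post-hCG and 1113 at 0-h, 3841 and 3865 with 10 or more reads. Its split was 552 higher and 578 lower at 4-h post-hCG and 546 and 567 at 0-h, but 6 and 1533, and 2 and 1536, with reads as counted. The ratio changed for 43 circRNA (17 higher, 26 lower), 11 to 75 without each mouse and 36 with mouse as a block. With 10 or more reads it changed for 72, and with the DESeq2 Wald test for 101 (50 higher, 51 lower). For exons 2 to 5 it ran from -0.15 to 0.61 without each mouse. The number of isoforms with shares that did not overlap was 1, and 1 to 3 without each mouse. Share differences changed sign when a mouse was left out for exons 8 to 12 (-12.8 to 3.22 points), exons 8 to 10 (-1.22 to 3.66), exons 2 to 6 (-0.95 to 1.61) and exon 8 (-1.09 to 2.22). With junctions of every type in the denominator they were -0.23 for exons 8 to 10, -0.31 for exons 2 to 6, -0.14 for exon 8 and 0.029 for exons 2 to 5. The cause was not tested.

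Replicate numbers shared by the groups did not pair the mice, as same-numbered libraries had correlations of deviations from -0.13 to 0.07. With the replicate number as a block, exons 2 to 5 changed by 2.76, circular Vcan per gene by 1.81 and linear Vcan by 2.88, and the counts of calls were 18 for abundant circRNA and 8 for circRNA with 10 or more reads. The other 3 abundant circles had 56 to 81 reads each, and whether depth or the spread between mice limits their calls was not tested.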
